A study of Homo sapiens with 6 samples.

Results

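The 38 genes described here carry cells through mitosis: the cyclins and kinases that start it, the passenger, checkpoint and kinetochore proteins that govern chromosome attachment, the ubiquitin ligase partners that end it, and the motors and scaffolds that divide the cell. They were taken from a list of mitosis genes by symbol and not by their measured values. Earlier results of these data were known when the list was chosen. All 38 had a probe set (a group of short oligonucleotides that together report 1 transcript) on the array, and all 38 passed the level filter, so that they made up 38 of 11810 genes tested. They had 77 of the 54675 probe sets on the array and 68 of the 26692 tested. The 9 member probe sets that were not tested averaged 0.227 to 0.938 array medians, below the level filter.

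The samples were 6 RNA preparations of K562, an established human erythroblastic leukemia line, with total RNA hybridised to 1 Affymetrix HG U133 PLUS 2.0 array each. The 3 parental samples were sensitive to methotrexate (MTX), an antifolate that blocks the supply of reduced folates for thymidylate and purine synthesis, and per the study's methods were grown in Ham's F12 medium with fetal bovine serum. The 3 resistant samples came from K562 cells taken through stepwise MTX concentrations until they resisted a dose written as 10e-5 M in the labels. The study's methods give a lower concentration for K562 than that spelling read literally. The resistant cells were kept in medium without glycine, hypoxanthine and thymidine with dialysed serum. Resistance and growth medium cannot be told apart in this design. Whether the resistant cells were 1 clone, and whether MTX was present at harvest, is not given in the sources used here. Nothing says that the samples of a group came from separate cultures, so the tests below measure the spread between these samples, which may be technical.

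Many mitosis genes are switched on together late in the cell cycle. In resting cells and in G1 the DREAM complex holds their promoters silent, and in S and G2 phase the MuvB core passes to MYBL2 and then FOXM1, which activate them. Much of this control acts through a short promoter element called the cell cycle genes homology region (CHR), often near CCAAT boxes bound by NF-Y. Because their transcripts peak in G2 and M, the level of these genes in a culture also follows the share of cells that are dividing. In RNA from a whole culture, fewer cells in mitosis and less RNA per mitotic cell cannot be told apart.

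The RNA carried the markers of the labelled cell type. All 7 of the erythroid markers on the array averaged 1 array median or more, with a summed level of 1629.8 to 1689 array medians in the parental arrays and 1053 to 1251 in the resistant arrays. Among these markers HBE1 was called lower in the resistant arrays (log2 difference -3.35, limma adjusted p = 0.00562). GATA1 differed by -0.82 and was not called, and HBZ, the other bright globin, differed by 0.13. Parental sample 1 stood apart from the other arrays of its group. Its Spearman correlation with parental samples 2 and 3 over tested probe sets was 0.899 and 0.889, against 0.969 between those samples. Some markers of other cell types were higher in it. Of the epithelial markers all but KRT7 were higher. CDH1 (E-cadherin) was at 21.8 array medians against 2.01 and 0.717 in the other parental samples, and EPCAM at 9.53 against 1.19 and 0.307. KRT8 was at 166.4 against 79.2 and 63.98, KRT18 at 352.1 against 209.8 and 168.97, and KRT19 at 83.7 against 39.9 and 31.8. The tested lymphoid and monocyte markers were mixed. PTPRC (the leukocyte antigen CD45) was at 60.2 against 0.374 and 0.402, and CD3D at 50.3 against 31.9 and 35.2. LYZ, a monocyte marker, went the other way (42.1 against 60.9 and 60.5), as did CD79A (0.552 against 1.29 and 1.33) and KRT7 (2.36 against 3.20 and 3.18). PTPRC was also at 6.50 to 9.60 in the resistant arrays, while CD3D was at 0.919, 2.14 and 0.0784 there. Over whole lists, all 6 epithelial markers averaged 1 array median or more, with summed levels of 269 to 636 in parental and 221 to 306 in resistant arrays. Of the 7 lymphoid and monocyte markers on the array 4 did so, with sums of 96.3 to 153.7 and 24.95 to 31.4, and CD14 stayed below 1 array median on all arrays. Of the 5 fibroblast markers 2 did so, with sums of 7.25 to 7.93 and 5.90 to 8.69, and LUM stayed below 1 throughout. The part of these markers in the results below was not tested.

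No mitosis gene was called different between resistant and parental K562 cells. Transcripts of the cyclins, kinases, checkpoint and kinetochore genes gave signal well above the array median in both groups, at 8 array medians or more on every array for 35 of the 38 genes, and the other 3 were INCENP, CENPA and UBE2C. By limma, at an adjusted p under 0.05 with a fold of at least 2, 0 of 38 were higher and 0 of 38 lower, where 1.30% of all tested genes were higher (153 genes) and 1.47% lower (174 genes), or 2.77% in either direction. Of the 68 member probe sets 0 were called, beside 2.33% of all tested probe sets. At an unadjusted p under 0.05 the count was 0 of 38 genes by limma and 1 by the t-test that the study's methods name, beside 20.0% of all genes by limma. Each gene is given by its representative probe set, the one with the highest mean log2 level.

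The differences were small in both directions. On the log2 scale (resistant minus parental) the median over members was 0.09, beside 0.02 over all tested genes, and the range ran from -0.77 in UBE2C to 0.74 in AURKB. In 22 of 38 members the difference was positive (57.9%), beside 51.4% of all genes. The largest fold in either direction was 1.71, and 36 of 38 members differed by less than 1.5-fold. The 95% interval included 0 for all 38. For 26 members it lay inside a 2-fold change in both directions by the representative probe set. In 7 of these (MKI67, CCNB1, CDK1, BIRC5, BUB3, ESPL1 and KIF23) the interval of another tested probe set reached a 2-fold change, so that 19 members had every tested probe set inside that range. The interval reached a 2-fold rise in MYBL2, CCNA2, PLK1, AURKB, INCENP, CDC20 and KIF20A, and a 2-fold fall in NEK2, BUB1, CENPA, UBE2C and ANLN, so that for these genes a change of that size in the direction named cannot be set aside with 3 arrays a group. Without the fold requirement also 327 genes passed at the adjusted p, and the smallest log2 difference among them was 1.04.

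**Figure D1:**
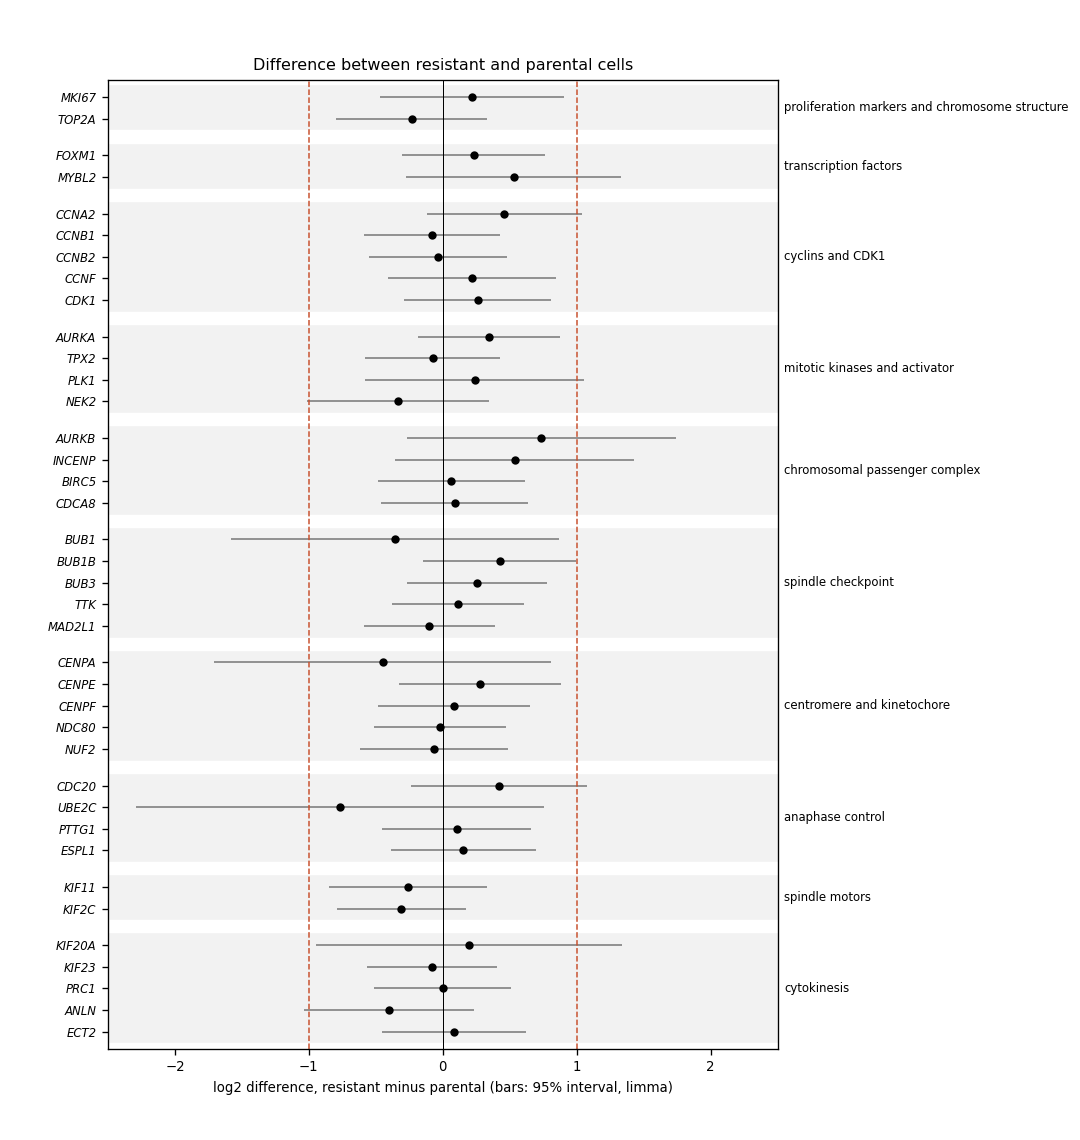
Log2 difference (resistant minus parental) of each of the 38 mitosis genes by its representative probe set, ordered by role, with 95% intervals from limma over 3 parental and 3 resistant arrays. Dashed lines mark a 2-fold change in either direction. Every interval crosses 0, and the points lie between -0.77 (UBE2C) and 0.74 (AURKB).

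The arrays of the groups overlapped in most members. In 4 of 38 genes (10.5%) all resistant arrays lay on 1 side of all parental arrays, beside 30.2% of all tested genes. These were FOXM1, CCNA2 and BUB1B, higher in the resistant arrays, and KIF2C, lower. Over member probe sets it was 11 of 68 (16.2%), beside 27.2% of all probe sets. Most members gave bright signal, so the genes with a mean level at or above the members' lower quartile (24.6 array medians) are the nearer background. Of these 3187 genes 16.4% had an unadjusted p under 0.05, 33.5% did not overlap and 1.16% were called, and of the 28 members in that range 0, 3 (10.7%) and 0 did. The spread between replicates was not wide in the members. The median SD within a group was 0.22 on the log2 scale over all 38 members, the dim ones included. It was 0.23 for the 3187 genes at that level and 0.34 for all genes.

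The promoters of these genes carried the elements of the program more often than promoters at large. RefSeq (GRCh38.p14) gave a promoter, 250 bases before to 50 after the gene start, for 31 of the 38 members, all but FOXM1, AURKA, TPX2, BIRC5, BUB3, TTK and UBE2C. The CHR, searched as TTTGAA on either strand, was in 21 of 31 (67.7%), beside 15.2% of all 35116 promoters. In the 60 bases before the start it was in 13 of 31 (41.9%), beside 2.98%. The variant TTCGAA was in 3 (9.68%, beside 1.45%). At least 2 CCAAT boxes, on either strand, were in 15 (48.4%, beside 10.8%), and 2 CCAAT boxes with a CHR or its variant in 11 (35.5%, beside 1.91%). Of the 26 CHR matches 2 overlapped a CCAAT match. The median log2 difference was 0.08 over the 21 members with a CHR and 0.15 over the 10 without. A match is a stretch of letters and not a shown binding site. The comparison promoters were not limited to genes tested here, and the share among tested genes was not counted.

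The last 125 bases before the gene start are printed for the 6 members that held a CHR and at least 2 CCAAT boxes there, to show how the elements are spaced. They lie at chr10:128126424-128126548 on the minus strand (MKI67), chr15:59105021-59105145 on the plus strand (CCNB2), chr11:62123886-62124010 on the plus strand (INCENP), chr1:37692391-37692515 on the plus strand (CDCA8), chr1:43358856-43358980 on the plus strand (CDC20) and chr3:172750601-172750725 on the plus strand (ECT2). BUB1 (chr2:110678064-110678188 on the minus strand) and KIF20A (chr5:138178987-138179111 on the plus strand) follow because their levels spread widest among the parental arrays. Each is written 5′ to 3′ on the gene's strand, and capitals mark CHR and CCAAT matches on either strand (a CCAAT on the other strand reads ATTGG).
MKI67: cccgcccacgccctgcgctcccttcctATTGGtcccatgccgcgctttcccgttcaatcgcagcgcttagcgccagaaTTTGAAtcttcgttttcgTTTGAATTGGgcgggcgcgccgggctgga
CCNB2: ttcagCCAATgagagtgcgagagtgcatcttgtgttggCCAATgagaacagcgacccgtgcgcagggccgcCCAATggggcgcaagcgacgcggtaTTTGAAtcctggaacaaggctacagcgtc
INCENP: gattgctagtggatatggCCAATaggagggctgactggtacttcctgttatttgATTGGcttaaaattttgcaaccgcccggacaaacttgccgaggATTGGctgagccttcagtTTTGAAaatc
CDCA8: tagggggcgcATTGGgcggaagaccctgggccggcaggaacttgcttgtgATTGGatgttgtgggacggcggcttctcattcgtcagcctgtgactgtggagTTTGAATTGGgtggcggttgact
CDC20: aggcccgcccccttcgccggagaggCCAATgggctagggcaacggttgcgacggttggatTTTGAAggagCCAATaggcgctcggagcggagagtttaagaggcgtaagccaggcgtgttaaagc
ECT2: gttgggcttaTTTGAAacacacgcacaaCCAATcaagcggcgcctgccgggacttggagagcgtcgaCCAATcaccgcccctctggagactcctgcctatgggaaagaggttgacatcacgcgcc
BUB1: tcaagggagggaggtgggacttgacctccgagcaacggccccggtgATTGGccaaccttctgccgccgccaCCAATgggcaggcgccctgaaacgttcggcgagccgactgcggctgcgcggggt
KIF20A: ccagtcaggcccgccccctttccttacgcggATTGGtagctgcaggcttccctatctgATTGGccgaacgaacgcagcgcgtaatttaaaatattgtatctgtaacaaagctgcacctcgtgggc

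In CCNB2 the CCAAT boxes stood at regular steps upstream of a CHR that began 29 bases before the start. MKI67 held its nearer CHR at the same distance, run together with a CCAAT box. The stretches of BUB1 and KIF20A held 2 CCAAT boxes each and no CHR.

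MKI67 encodes Ki-67, the nuclear protein that coats mitotic chromosomes and is stained to count cycling cells, and TOP2A the topoisomerase that untangles sister DNA. The MKI67 representative probe set stood at 28.1, 44.3 and 48.8 array medians in the parental arrays and 43.2, 40.5 and 54.7 in the resistant arrays. The groups overlapped, with parental sample 1 lowest of all, and the log2 difference was 0.22 ± 0.29 (SE), or -0.02 without that array. TOP2A was at 87.9, 69.7 and 61.4 in the parental arrays and 70.2, 54.4 and 60.7 in the resistant arrays, a log2 difference of -0.23. Here parental sample 1 was the highest array. In the other tested TOP2A probe set, 201291_s_at, parental sample 2 was highest (61.9, against 47.2 in parental sample 1). There all resistant arrays lay below all parental arrays, by a log2 difference of -0.32 (limma adjusted p = 0.479).

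Of the transcription factors, FOXM1 was at 8.74, 8.55 and 8.49 array medians in the parental arrays and 9.41, 8.74 and 12.5 in the resistant arrays. The arrays did not overlap, but the highest parental and the lowest resistant array were all but level, and the log2 difference was 0.23. Its array values were picked for display after they were seen. MYBL2, which primes the same promoters before FOXM1, was at 21.9, 35.02 and 32.1 (parental) and 60.05, 30.0 and 41.1 (resistant). Its groups overlapped, and its log2 difference of 0.53 had a 95% interval from -0.27 to 1.33.

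CCNA2, the cyclin of S phase and mitotic entry, had the smallest p of all 38 genes. It was at 35.9, 52.6 and 46.8 array medians in the parental arrays and 71.5, 58.4 and 55.0 in the resistant arrays. All resistant arrays were higher, by a log2 difference of 0.46 ± 0.24 (SE, 95% interval -0.12 to 1.04), and limma's adjusted p was 0.365. CDK1, the kinase that drives mitosis, was at 154.0, 208 and 172 (parental) and 212, 184 and 242 (resistant), a log2 difference of 0.26 with overlapping groups. Its mitotic partners CCNB1 (-0.08) and CCNB2 (-0.04) were nearly level by their representative probe sets, and CCNF, a cyclin-like F-box protein, differed by 0.22. The other CCNB1 probe set, 228729_at, differed by 0.46 (95% interval -0.17 to 1.09).

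Among the mitotic kinases, AURKA, which matures centrosomes, was at 46.3, 62.0 and 50.4 array medians in the parental arrays and 65.4, 61.0 and 74.3 in the resistant arrays. Only resistant sample 2 lay within the parental range, and the log2 difference was 0.34. In a further AURKA probe set, 204092_s_at, all resistant arrays were higher (0.36, limma adjusted p = 0.419), and the dim 208080_at differed by -0.16. NEK2, a kinase of centrosome separation, was at 29.4, 46.9 and 36.6 (parental) and 37.9, 28.1 and 23.8 (resistant), a log2 difference of -0.33. TPX2, the activator of AURKA on spindle microtubules, differed by -0.08, and PLK1, the polo-like kinase of mitotic entry and exit, by 0.24, or -0.06 without parental sample 1. Of these 4 genes, 2 were positive and 2 negative.

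The chromosomal passenger complex corrects faulty chromosome attachments and later helps to split the cell. Its 4 genes all had positive differences, with a median of 0.31 and none called, and without parental sample 1 all 4 were again positive with a median of 0.18. AURKB, its kinase, was at 11.9, 23.3 and 24.7 array medians in the parental arrays and 42.7, 37.4 and 19.8 in the resistant arrays. Resistant sample 3 fell inside the parental range, and the log2 difference of 0.74 ± 0.42 (SE) was the highest of all members (95% interval -0.26 to 1.74, limma adjusted p = 0.397). It was 0.40 without parental sample 1 and 1.07 without resistant sample 3. INCENP, the scaffold, was at 2.06, 4.68 and 4.53 (parental) and 5.16, 4.24 and 6.07 (resistant), a log2 difference of 0.54, with parental sample 1 lowest, or 0.15 without that array. BIRC5 (survivin, 0.06) and CDCA8 (borealin, 0.09), which dock the complex on centromeres, were nearly level.

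The spindle checkpoint delays anaphase until every chromosome is attached. BUB1B (BUBR1), part of the complex that inhibits anaphase, was at 47.4, 56.2 and 42.4 array medians in the parental arrays and 79.7, 60.7 and 56.6 in the resistant arrays. The arrays did not overlap, by a gap smaller than the spread within either group (log2 difference 0.43, limma adjusted p = 0.391). BUB3, which brings BUB1 and BUBR1 to kinetochores, was at 142.9, 182 and 137 (parental) and 202, 179 and 168 (resistant), with overlap (0.26). BUB1, the kinetochore kinase, is shown because of its spread and was picked after its values were seen. It was at 28.3, 104 and 95.3 (parental) and 54.0, 46.3 and 53.5 (resistant). The resistant arrays all lay between parental sample 1 and the other parental samples, and the log2 difference was -0.36 (95% interval -1.58 to 0.87). Without parental sample 1 it was -0.96, a 1.95-fold lower level, with a limma adjusted p of 0.0727, the lowest of any member under any setting tried. The checkpoint kinase TTK (0.11) and MAD2L1 (-0.10), the MAD2 protein, were nearly level.

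**Figure D2:**
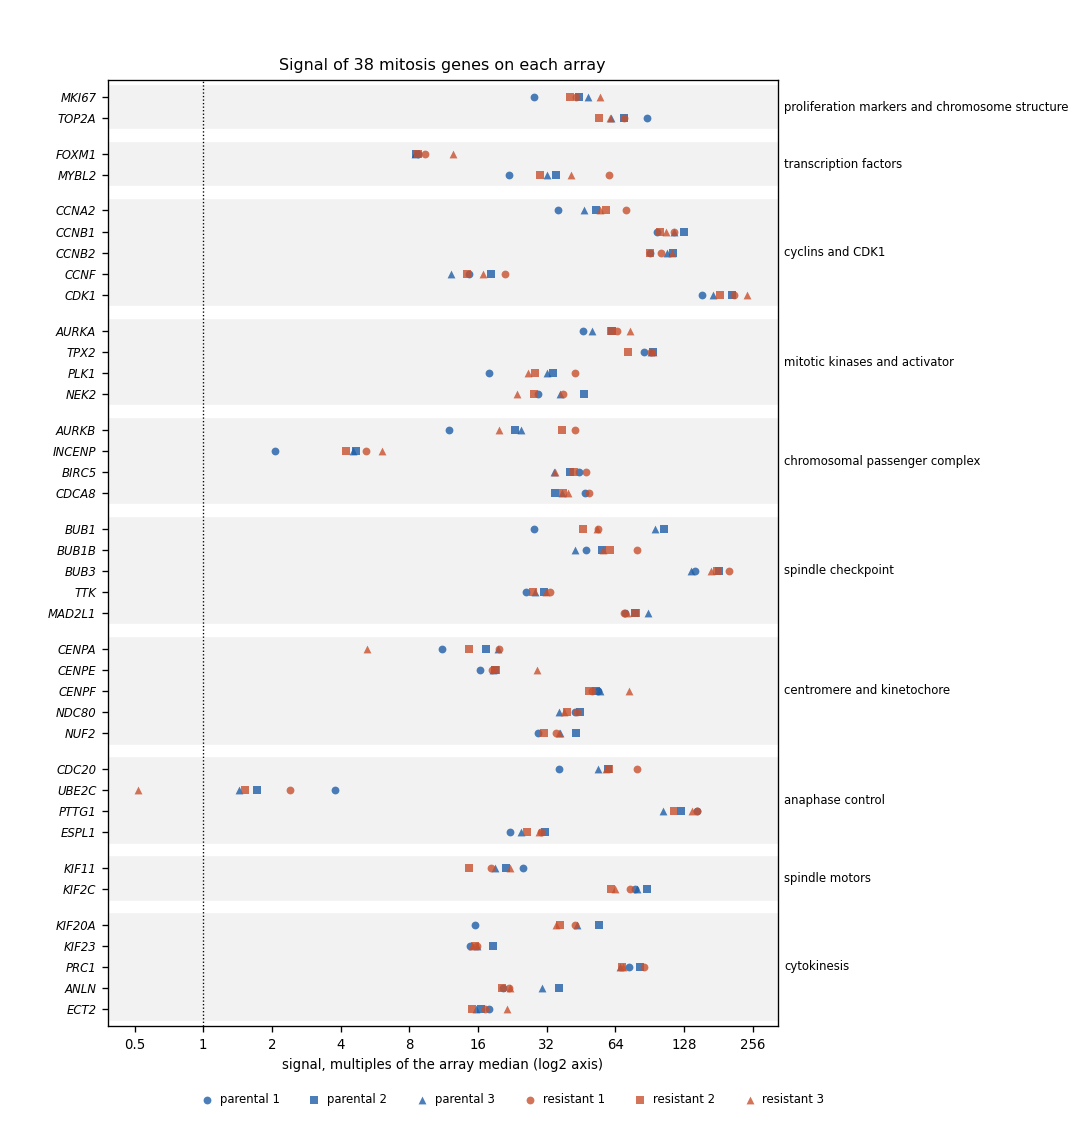
Signal of the 38 mitosis genes by representative probe set on each of the 6 arrays (log2 axis, in array medians), with parental arrays in blue, resistant arrays in orange and a marker shape for each replicate. The groups overlap in most genes, and CCNA2 and BUB1B have all resistant arrays above all parental arrays.

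Of the centromere and kinetochore genes, CENPA, the centromeric histone, was at 11.2, 17.4 and 19.6 array medians in the parental arrays and 19.7, 14.6 and 5.23 in the resistant arrays. Resistant sample 3 was far below the rest, and the log2 difference of -0.45 had a 95% interval that reached past a 2-fold fall. Without that array the difference turned to 0.12. CENPE, a kinetochore motor, was at 16.4, 19.0 and 18.7 (parental) and 18.5, 19.2 and 29.0 (resistant), a log2 difference of 0.27. CENPF (0.08), NDC80 (-0.02) and NUF2 (-0.06), the last pair being arms of the complex that grips microtubules, were nearly level. NDC80 also had a narrow spread, an SD of 0.13 on the log2 scale.

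Anaphase is started by the anaphase-promoting complex. CDC20, its activator, was at 36.4, 59.4 and 53.8 array medians in the parental arrays and 79.5, 60 and 58.2 in the resistant arrays. Resistant sample 3 lay below the highest parental array, and the log2 difference was 0.42. UBE2C, the ubiquitin-conjugating enzyme of the complex, was at 3.78, 1.72 and 1.44 (parental) and 2.39, 1.52 and 0.520 (resistant), a log2 difference of -0.77 (95% interval -2.29 to 0.75). Its representative probe set reached below the median signal of an array, so its value is a weak measure of the gene, and the difference was -0.35 without parental sample 1 and -0.15 without resistant sample 3. PTTG1 (securin, 0.10) and ESPL1 (separase, 0.15), the inhibitor and the protease that cuts cohesin, were nearly level by their representative probe sets. The other ESPL1 probe set, 204817_at, differed by 0.47, with all resistant arrays above all parental arrays (limma adjusted p = 0.355). The PTTG1 probe set belongs to the class whose oligonucleotides may match close copies of the gene.

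The spindle motor KIF2C, a microtubule depolymerase at centromeres, was at 78.1, 88.3 and 79.9 array medians in the parental arrays and 74.1, 61.4 and 63.7 in the resistant arrays. All resistant arrays were lower, by a log2 difference of -0.31 ± 0.20 (SE, limma adjusted p = 0.458), the narrowest spread of any member (SD 0.12). KIF11, the motor that pushes spindle poles apart, differed by -0.26. Of the cytokinesis genes, ANLN, the actin-binding scaffold of the cleavage furrow, was at 20.7, 36.1 and 30.6 (parental) and 21.97, 20.3 and 22.04 (resistant), a log2 difference of -0.40. The resistant arrays lay together near parental sample 1, below the other parental samples. KIF20A, a motor of the central spindle, was at 15.5, 54.2 and 43.3 (parental) and 42.8, 36.6 and 35.05 (resistant), a log2 difference of 0.20 (95% interval -0.94 to 1.34), which turned to -0.35 without parental sample 1. KIF23 (-0.08) and PRC1 (0.00), which bundle the midzone microtubules, and ECT2 (0.09), the activator of RhoA at the furrow, were nearly level.

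Several members were read by more than 1 probe set, and these did not always point the same way. Of the 18 members with more than 1 tested probe set, 7 had the same sign in all and 11 had both signs. The difference between their probe sets reached 1 on the log2 scale with both signs in MKI67 (1.08) and BUB3 (1.02). In MKI67, 212023_s_at was at 8.43, 6.34 and 5.68 array medians in the parental arrays and 3.72, 3.59 and 3.79 in the resistant arrays. Its resistant arrays were all lower, by a log2 difference of -0.86 ± 0.23 (SE), with a limma adjusted p of 0.120, and it was the 1 member probe set of 68 with an unadjusted p under 0.05. The remaining MKI67 probe sets differed by -0.40 (212021_s_at) and -0.28 (212020_s_at), against the 0.22 of the brightest, 212022_s_at.

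In BUB3, 201458_s_at was at 110.6, 83.1 and 70.6 array medians in the parental arrays and 62.8, 59.7 and 64.7 in the resistant arrays, and 201456_s_at at 54.3, 42.4 and 43.5 and 41.5, 38.8 and 23.4. Both were lower on all resistant arrays, by -0.47 each, while the brightest BUB3 probe set, 201457_x_at, was at 0.26, 209974_s_at at 0.16 and 237245_at at 0.55. The direction of MKI67 and BUB3 therefore depended on which probe set was read. In BUB1, 215509_s_at was also lowest in parental sample 1: 11.6, 61.1 and 63.3 (parental) and 37.98, 31.2 and 19.9 (resistant). Of the 38 representatives 17 were of the classes whose oligonucleotides may match more than 1 transcript, and 1 more probe set that names CENPA among several genes was left out.

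**Figure D3:**
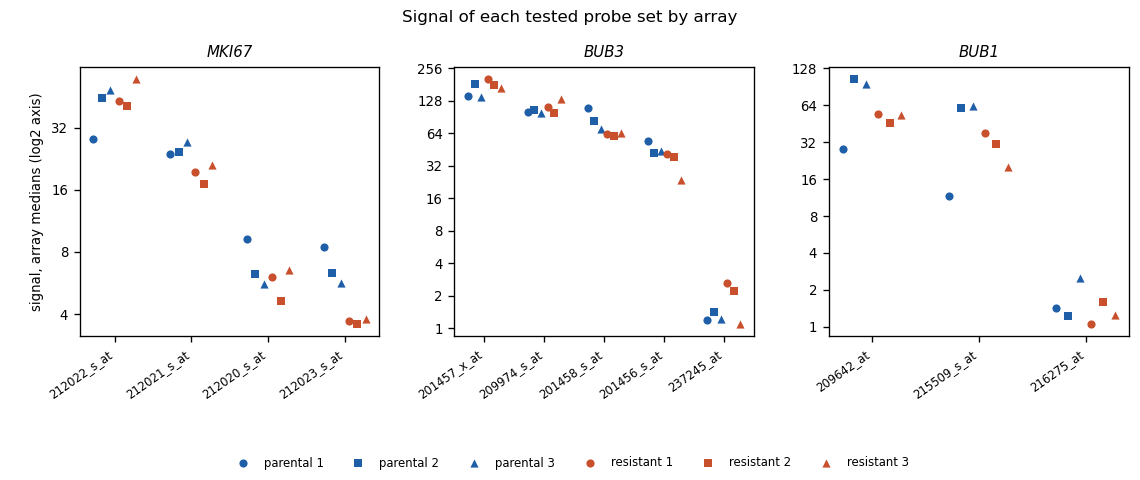
Signal of every tested probe set of MKI67, BUB3 and BUB1 on each array (log2 axis, in array medians), with parental arrays in blue and resistant arrays in orange. The resistant points lie below all parental points in 212023_s_at and 212021_s_at of MKI67 and in 201458_s_at and 201456_s_at of BUB3, and parental sample 1 lies lowest in both bright BUB1 probe sets.

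Parental sample 1 deviated most in the members, with a median absolute deviation from the rest of its group of 0.33 on the log2 scale against 0.21 to 0.28 on the other arrays. It deviated most over all tested genes too, by 0.42 against 0.26 to 0.34. It was below the mean of parental samples 2 and 3 in 29 of 38 members (76.3%), where it was above that mean in 56.4% of all tested genes, and its median deviation over members was -0.23 on the log2 scale. In 17 members it was the lowest of all 6 arrays (not counted over all genes). It was more than 2-fold below the other parental samples in 4 members (10.5%, beside 7.36% of all genes): BUB1 (3.52-fold), KIF20A (3.13-fold), INCENP (2.24-fold) and AURKB (2.01-fold). UBE2C alone was more than 2-fold above them (2.40-fold), beside 10.5% of all genes. Some other arrays leaned too. Parental sample 2 was above the mean of the rest of its group in 30 of 38 members, beside 56.4% of all tested genes. That mean includes parental sample 1, which was low in most members, so this is not a separate lean. Resistant sample 1 was so in 31 members, beside 70.6%, and resistant sample 2 in 6, beside 31.4%. Genes at large leaned the same way on these resistant samples, though in a smaller share than the members. The median deviation was 0.17 over members and 0.19 over all genes on resistant sample 1. On resistant sample 2 it was -0.20 and -0.15. Without parental sample 1, 11 members did not overlap in place of 4, beside 47.0% of all genes, with fewer arrays to separate. The direction turned in MKI67, PLK1, KIF20A and NDC80, and the members ran from -0.96 (BUB1) to 0.41 (BUB1B) with a median of 0.02. The difference was then 0.31 in CCNA2, 0.32 in MYBL2 and 0.21 in CDC20. BUB1 and ANLN (-0.63) then had an unadjusted p under 0.05, beside 23.4% of all genes, and 0 members were called.

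**Figure D4:**
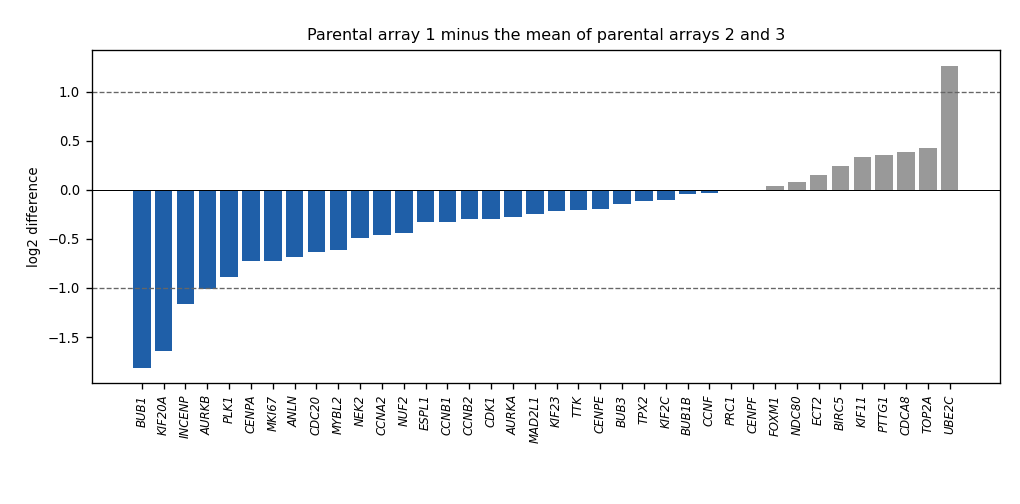
Deviation (log2) of parental sample 1 from the mean of parental samples 2 and 3 for each of the 38 members, ordered by size, with dashed lines at a 2-fold change. Bars of 29 genes lie below 0, with BUB1, KIF20A, INCENP and AURKB more than 2-fold below.

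Further genes of mitosis gave the same count of calls. Of 113 tested genes in 5 lists, 0 were called by limma in either direction, 7 (6.19%) had an unadjusted p under 0.05, and 23 (20.4%) did not overlap, beside 2.77%, 20.0% and 30.2% of all tested genes, with a median log2 difference of -0.02. The lists held 16 tested genes of the anaphase-promoting complex and its regulators (median -0.08), 30 of the centromere and kinetochore (0.02), 21 of condensin and cohesin (0.02), 28 of the spindle and centrosome (-0.01) and 18 of mitotic entry and the DREAM complex (-0.03). The genes of smallest p in each were ANAPC4 (0.52) and the inhibitor FBXO5 (-0.46), MIS18A (-0.81) and HJURP (0.71) of CENPA loading, STAG2 (-0.95) and CDCA5 (0.49) of cohesion, SPAG5 (1.21) and HAUS6 (1.10) of the spindle, and CKS2 (0.71) and PBK (0.55) of mitotic entry.

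SPAG5 (astrin), which stabilises kinetochore fibres, came nearest to a call among the genes just named. It was at 32.8, 25.6 and 22.4 array medians in the parental arrays and 67.2, 55.0 and 62.7 in the resistant arrays. All resistant arrays were higher, with a limma adjusted p of 0.0595, and without parental sample 1 it was called higher (1.36, adjusted p = 0.0335). HAUS6, of the augmin complex that branches spindle microtubules, was at 18.3, 14.7 and 12.1 (parental) and 29.3, 28.2 and 39.2 (resistant), with an adjusted p of 0.0920. STAG2, a cohesin subunit, was at 97.5, 96.7 and 82.6 (parental) and 52.2, 38.6 and 53.2 (resistant), with an adjusted p of 0.0958. In both of these the groups were apart, and neither was called.

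Genes of other cell cycle phases were set beside them. Of 31 DNA replication genes 0 were called and 2 had an unadjusted p under 0.05, with a median of 0.09 and 21 positive, beside 2.77% called, 20.0% under that p and 51.4% positive over all genes. The lowest p were those of MCM4, a subunit of the replicative helicase, at 44.7, 42.2 and 39.3 array medians (parental) and 95.3, 71.3 and 66.4 (resistant), a log2 difference of 0.87 with a limma adjusted p of 0.115, and of the origin-licensing factor CDT1 (0.85). Of 16 genes for G1 cyclins and brakes of the cell cycle, 0 were called higher, 1 lower and 6 had an unadjusted p under 0.05, with a median of -0.38. The call was CCND1 (cyclin D1), at 15.1, 15.7 and 13.1 (parental) and 0.455, 0.736 and 0.294 (resistant). Its limma adjusted p was 0.00279. The resistant values lay below the median signal of their arrays and may be background, so that the fitted log2 difference of -4.98 does not measure the size of the fall. Both tested CCND1 probe sets were called lower. This call was kept without each array in turn, with adjusted p up to 0.0184.

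**Figure D5:**
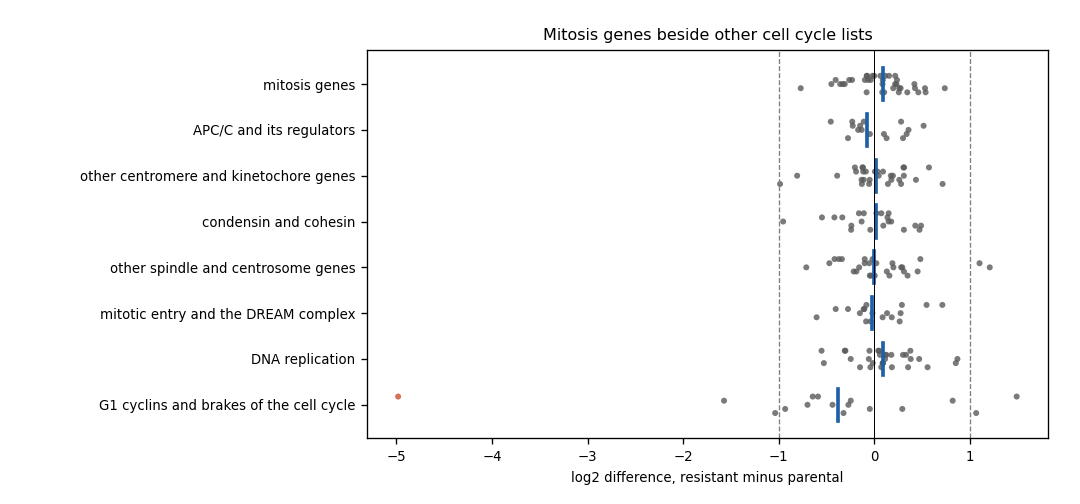
Log2 differences (resistant minus parental) of the genes of each list, with 1 point a gene (orange where called, grey otherwise), a blue bar at each median and dashed lines at a 2-fold change. The mitosis genes and the further mitosis and replication lists lie around 0, and CCND1 of the G1 list lies far below at a fitted -4.98, with resistant signals too low to measure the size.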

How the data were processed

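Total RNA of 3 parental and 3 MTX-resistant K562 samples was hybridised to Affymetrix HG U133 PLUS 2.0 arrays. The authors deposited 1 signal intensity per probe set and array, made with MAS5 per the submitters' processing notes (version not given in the sources used here). Array medians were 14.3, 13.1 and 12.7 (parental) and 12.3, 12.5 and 10.2 (resistant). Each signal was divided by its array's median, as in the study's methods, set to at least 0.01 of it, and taken to log2 without a pseudocount. The 62 control probe sets were left out, as were probe sets with a mean scaled signal under 1, leaving 26692.

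limma 3.58.1 (lmFit, eBayes) in R 4.3.3 compared the groups, two-sided, with Benjamini-Hochberg adjustment over all tested probe sets. Differences of 2-fold or more with an adjusted p below 0.05 were called. Levels of different probe sets were set against each other only to choose representatives and genes of like signal. The number of arrays limits the precision. Probe sets naming 1 gene (41097 of 54675, against 1801 naming several and 11777 naming none) were used, with symbols updated by gene ID (41043 matched). A gene was represented by its tested probe set of highest mean log2 level. The script was tested on simulated data.

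The 38 members and the other lists were chosen with earlier results of these data known. All members are named. Values on every array are given for the 2 of smallest p in each role of 4 or more members (1 otherwise), for members whose probe sets differ in sign by 1 or more, and for members with a called probe set (there were 0). FOXM1 and BUB1 were added after their values were seen. Of the other lists, up to 4 called genes or else the 2 of smallest p are named. The replicate numbers did not pair the samples. Alternatives covered scaling, filter, pseudocount, prior, the methods' t-test, a replicate block, probe set choice and left-out arrays.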

Additional observations from a re-analysis of the deposited data

How the results depend on the processing

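Under all 20 alternative settings, 0 members were called higher and 0 lower, by limma or by the methods' t-test, and 0 member probe sets were called under the 19 in which probe sets were not averaged. The lowest adjusted p ranged from 0.0727 (without parental sample 1, BUB1) upward. The median log2 difference of the members, 0.09, turned to -0.11 on the values as deposited without scaling, where the median of all genes was -0.18, and ran from 0.02 to 0.19 when 1 array was left out. The count of members whose arrays did not overlap, 4, was 7 on the values as deposited (29.3% of all genes), 4 to 11 with 1 array left out (36.2 to 47.0% of all genes; 4 without parental sample 3, 11 without parental sample 1), and 18 without parental sample 1 and resistant sample 3 together, beside 59.9% of all genes; fewer arrays separate more easily. Of 711 values of single members under alternatives, 684 stayed within 1 SD and 27 moved further, and 52 values in 22 members changed sign, none of them called. Part of these values could not move. The other prior, the methods' t-test and the replicate block leave each log2 difference as it is, and the level filter only changes which probe sets are tested. The count that stayed is therefore not a measure of stability. AURKB differed by 1.07 without resistant sample 3 (limma adjusted p = 0.268) and by 0.40 without parental sample 1. The replicate numbers shared by the groups did not pair the samples: same-numbered samples had correlations of deviations of -0.01, -0.03 and 0.02, and parental sample 1 correlated more with resistant sample 2 than with resistant sample 1. With the replicate number as a block, 143 genes were called in place of 327, 0 of them members. In this balanced design a block cannot change the median difference or the overlap of arrays. Genes called over all settings ran from 63 (the methods' t-test) to 611 (a pseudocount of 1 array median); the cause was not tested. Dim probe sets such as that of UBE2C, near the median signal, are limited by background.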
